A study of Mus musculus with 24 samples.

Results

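Depletion of Fem1b was compared with depletion of Keap1 in C2C12 cells, a line of mouse myoblasts that divide in rich medium and fuse into myotubes on its withdrawal. The comparison rests on the 3 libraries labelled siFem1b and the 3 labelled siKeap1, which are 6 of the 12 libraries of the series and were chosen by their siRNA labels alone. All cells carried an siRNA for 48 h, were kept undifferentiated and below confluence in medium with serum, and gave total RNA that was selected for poly(A). The remaining libraries held a non-targeting siRNA (siCont) or the siRNAs against Fem1b and Keap1 together (siFem1b/Keap1). The level in siCont is given below as the background of untargeted cells, and the double depletion entered the filter on low counts, the normalization and the estimate of the spread. The labels name 3 repeats per group and do not say whether they came from separate cultures. The p-values therefore measure no more than the scatter among the libraries, and that scatter may be technical. Each gene was targeted by 1 siRNA sequence, so the loss of the target and any other effect of that sequence cannot be told apart here.

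KEAP1 is the substrate receptor of a CUL3 ubiquitin ligase that binds the transcription factor NRF2, the product of Nfe2l2, and keeps its level low. Oxidants and electrophiles modify cysteines of KEAP1, after which NRF2 accumulates and drives genes of glutathione synthesis, quinone reduction, NADPH production and iron storage through antioxidant response elements. FEM1B is the substrate receptor of a CUL2 ubiquitin ligase that recognises FNIP1, a partner of folliculin, when cysteines of FNIP1 are in the reduced state, so the 2 ligases are known as sensors of opposite departures from redox balance. In myoblasts, MyoD and Myf5 mark the lineage, while myogenin switches on the genes of the contractile apparatus as cells leave the division cycle and prepare to fuse.

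The 6 libraries held 32855831 to 39917434 gene counts, with 19109 to 19793 genes that had a count. The first principal component of the 6 libraries held 80.8% of their variance and parted siFem1b from siKeap1. Replicates 1 and 2 of siKeap1 lay closest together, with a chi-square per degree of freedom of 2.54 where pure counting error gives 1. The 2 runs of a single library differed by 2.40 to 2.95 on the same measure over the 6 libraries, so this value does not by itself show 2 separate preparations, and replicates 1 and 2 were counted as 2 because the labels do. Within a run they stood at 1.57 and 2.39, and with siKeap1 replicate 1 or 2 left out the counts of called genes below became 4361 and 4380 higher in siFem1b and 4363 and 4359 higher in siKeap1. siFem1b replicate 2 lay farthest from its group, at 18.4 against replicate 1 and 15.5 against replicate 3. Myoblast markers were present in both groups, with Vim at 5704 TPM (a level corrected for transcript length) in siFem1b and 4705 in siKeap1 and Des at 519 and 321. Of the myotube markers, the adult myosin genes were low, with Myh1 at 0.337 and 0.0885 TPM and Myh2 with 5 and 3 counts over the 3 libraries of each group. Other myotube markers were present in siFem1b, with Acta1 at 84.3 and 15.7 TPM, Mymk at 25.6 and 1.45, Myh3 at 4.68 and 0.153 and Ckm at 2.97 and 0.172.

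The siRNAs match the coding sequence of their targets, which lie on the same chromosome. The target sites are shown on the sense strand, 5′ to 3′, because the sequences define the groups, and capitals mark the 7 bases that pair with positions 2 to 8 of the guide strand, its seed.
siKeap1: gcgccaatgttGACACGGa
siFem1b: gaagatcagtgCAGAATTa
The siKeap1 site lies at chr9:21231850-21231868 (GRCm38, minus strand), in exon 4 of 6 of 4 Keap1 transcripts and exon 3 of 5 of another. The siFem1b site lies at chr9:62796575-62796593, minus strand, in exon 2 of 2 of Fem1b.

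The targeted genes checked the labels in every library. Keap1 (chr9:21229730-21239361) stood at 10.2, 11.1 and 8.59 CPM (gene counts scaled to library size) in the siKeap1 libraries and at 56.7, 57.5 and 63.3 CPM in the siFem1b libraries. Fem1b (chr9:62791821-62811934) stood at 12.8, 13.6 and 13.4 CPM in siFem1b and at 102, 106 and 97.8 CPM in siKeap1. The untargeted gene of each pair lay near its level in siCont, which held 61.8 ± 1.4 CPM of Keap1 and 96.9 ± 4.0 CPM of Fem1b (mean ± SD, n = 3). Keap1 was thus 5.93-fold higher and Fem1b 7.71-fold lower in siFem1b than in siKeap1. An antisense gene, Gm16754, overlaps Keap1, and the counts carry no strand.

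The 2 depletions left the cells with widely different RNA. Of 14577 genes tested, 4675 were higher in siFem1b (32.1%) and 4635 were higher in siKeap1 (31.8%) at an adjusted p under 0.05 (edgeR's quasi-likelihood test, Benjamini-Hochberg adjustment), 63.9% in all. The 32.1% and 31.8% are the background for every count of list members below. All 3 libraries of one group lay above all 3 of the other for 34.0% of genes in favour of siFem1b and for 33.5% in favour of siKeap1, 67.6% in all. The called genes at least 1.5-fold apart made up 14.6% of tested genes on the siFem1b side and 10.1% on the siKeap1 side. Of the called genes, 50.2% were higher in siFem1b, while among those called at least 2-fold apart the share was 66% (1175 genes higher in siFem1b, 605 in siKeap1), and at least 4-fold apart it was 69.4% (401 and 177, which are 2.75% and 1.21% of tested genes). The median absolute log2 fold change over all tested genes was 0.321. In the whole text a positive log2 fold change means a higher level in siFem1b, and in bulk RNA fewer cells of a kind and less RNA per cell cannot be told apart.

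**Figure D1:**
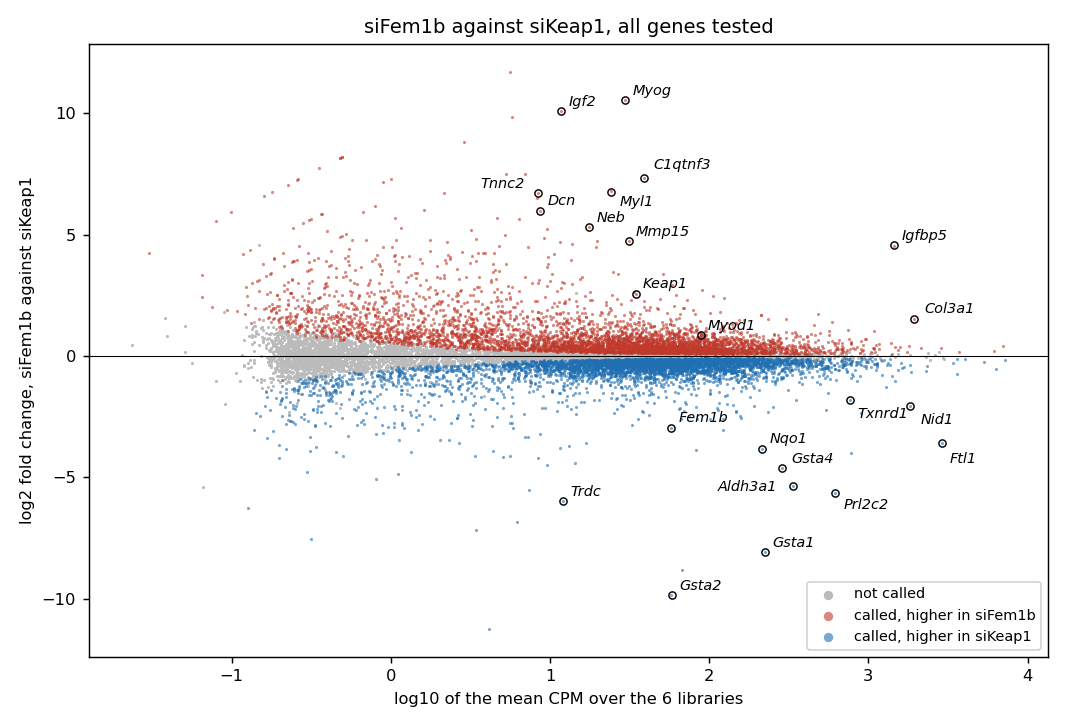
Each point is 1 of 14577 tested genes, with the mean level over the 6 libraries (log10 CPM) on the x axis and the log2 fold change of siFem1b against siKeap1 on the y axis. Circles mark named genes, from Myog at 10.52 to Gsta2 at -9.85, and the genes more than 4-fold apart are more numerous above the line than below it.

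Genes that NRF2 is known to drive separated the groups completely, in a list chosen with earlier results of these data known. Of 36 NRF2 target genes, 34 passed the filter on low counts, and all 34 were called higher in siKeap1, where 31.8% of all tested genes were. Their median log2 fold change was -1.86, against -0.00221 over all tested genes, and 26 of the 34 were at least 2-fold apart (4.15% of all tested genes). The libraries did not overlap for any of the 34. The 2 members below the filter, Gstm3 and Ces1d, had 12 and 1 counts in siKeap1 and 0 in siFem1b. Summed over the list, the siKeap1 libraries held 9224 to 9363 CPM and the siFem1b libraries 2898 to 2959 CPM, with 3867 to 4049 CPM in siCont.

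Nqo1, the NAD(P)H quinone reductase that serves as a standard readout of NRF2, stood at 408, 411 and 383 CPM in siKeap1 and at 27.9, 28.2 and 29.2 CPM in siFem1b. It was 14.1-fold lower in siFem1b (log2 fold change -3.82, SE 0.0461, edgeR adjusted p = 2.3e-21), and siCont held 74.1 ± 3.6 CPM (SD, n = 3). Slc7a11, which imports cystine for glutathione synthesis, had 161, 158 and 143 CPM in siKeap1 against 10.4, 11.4 and 9.44 CPM in siFem1b, a 14.8-fold difference. Both genes showed a gap between the groups many times wider than the spread within them. Aldh3a1, an aldehyde dehydrogenase, was 40.5-fold lower in siFem1b, at 16.4, 15.1 and 17.2 CPM against 664, 665 and 645 CPM. Hmox1, the inducible heme oxygenase, stood at 112, 107 and 116 CPM in siKeap1 and at 31.8, 29.3 and 29.5 CPM in siFem1b, 3.69-fold lower. At the small end of the list were Ugdh (log2 fold change -0.33), the peroxiredoxin gene Prdx1 (-0.53) and Cbr1 (-0.61).

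**Figure D2:**
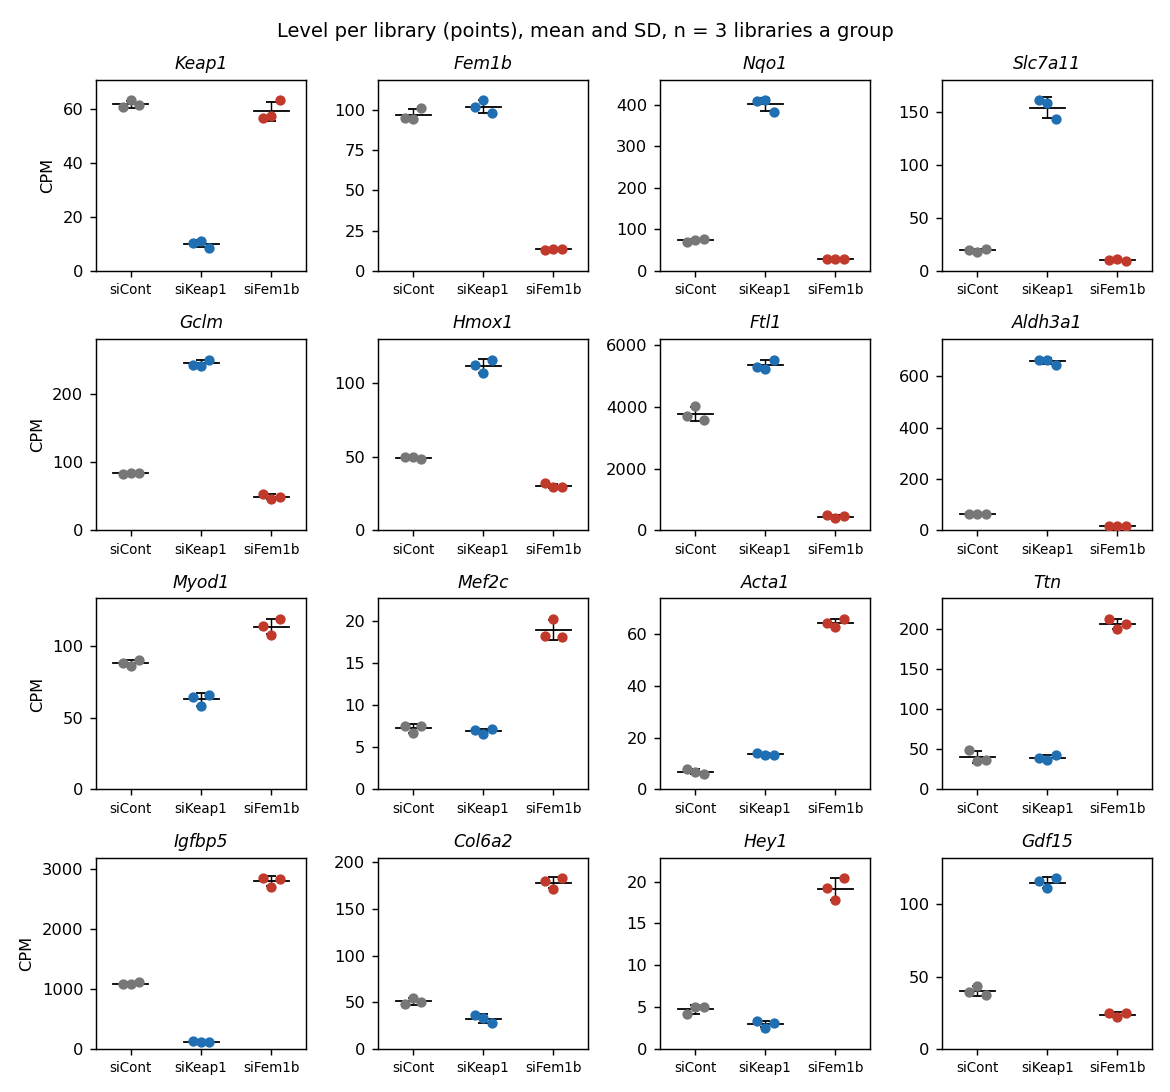
Levels of 16 genes in CPM (y axis, from 0, a scale for each gene) in every library of siCont, siKeap1 and siFem1b, with the mean as a line and the SD as an error bar (n = 3 libraries per group). For each gene the 3 siFem1b points stand clear of the 3 siKeap1 points, as for Nqo1 (27.9 to 29.2 against 383 to 411 CPM) and Acta1 (62.9 to 65.9 against 13.2 to 14.2 CPM).

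Within this list Gsta2 and Gsta1, glutathione S-transferases of the alpha class that couple glutathione to electrophiles, were furthest apart. Gsta1 had 456, 452 and 436 CPM in siKeap1 and 1.57, 1.67 and 1.71 CPM in siFem1b, and Gsta4 had 559, 547 and 552 CPM against 23.8, 20.9 and 22.8 CPM. Gsta2 had 12530 counts over the 3 siKeap1 libraries and 14 over the 3 siFem1b libraries, a ratio of 947 (95% exact Clopper-Pearson interval 564 to 1733, which covers counting error only). Gsta1 and Gsta2 are near-identical copies, and how reads were shared between them is uncertain. Their siCont levels, 36.3 CPM for Gsta1 and 7.48 CPM for Gsta2, lay between those of the depletions.

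The antioxidant response element was searched as TGACNNNGC on both strands in the promoters of tested genes, from 250 bases before to 50 after the start (RefSeq, GRCm38.p6, matched by symbol for 10825 genes with 13768 promoters). It was present in 13 of 35 promoters of the NRF2 list (37.1%) and in 13.8% of all promoters. Among promoters of genes called at least 2-fold higher in siKeap1 the share was 14.9%, and among those at least 2-fold higher in siFem1b it was 12.5%. The matches with the largest fold changes outside annotated exons are printed 5′ to 3′ on the strand of the gene, with the match in capitals, as examples of the element in the list.
Gsta3: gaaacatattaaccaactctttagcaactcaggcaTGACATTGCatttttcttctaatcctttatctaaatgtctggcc
Gclm: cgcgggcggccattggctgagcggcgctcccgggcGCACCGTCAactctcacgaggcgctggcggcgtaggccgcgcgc
Pir: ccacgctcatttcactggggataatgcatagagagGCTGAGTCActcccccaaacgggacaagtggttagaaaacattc
Txnrd1: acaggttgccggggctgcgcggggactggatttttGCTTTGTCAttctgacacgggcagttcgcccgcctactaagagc
These windows lie at chr1:21240429-21240507 (plus strand), chr3:122245388-122245466 (plus), chrX:164269182-164269260 (plus) and chr10:82859079-82859157 (plus). A match of letters is a description and not a measured binding site.

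Genes of the NRF2 list recur in the lists of glutathione, the thioredoxin system and NADPH production that follow. Gclm, Txnrd1, Srxn1, G6pdx, Pgd and Me1 are among them, so the counts of these lists are not separate results. Glutathione synthesis and use held members on both sides. Of 32 tested genes, 20 were higher in siKeap1 and 8 were higher in siFem1b, with a median log2 fold change of -0.872. Gclm and Gclc encode the modifier and catalytic subunits of glutamate-cysteine ligase, where glutathione synthesis begins, and were 4.97-fold and 4.43-fold lower in siFem1b, and Gclm stood at 242, 241 and 250 CPM in siKeap1 and at 53.4, 46.0 and 47.9 CPM in siFem1b. Gss, which completes the synthesis, was lower at -0.96 on the log2 scale, and Gsr, which regenerates reduced glutathione, likewise (-1.23). On the siFem1b side stood Chac1, which breaks glutathione down (log2 fold change 0.70), Mgst3 (121 against 66.3 CPM, 0.87) and the extracellular glutathione peroxidase Gpx3 (9.24 against 2.90 CPM, 1.67). Gstt1 had 123 counts in siFem1b and 28 in siKeap1, a ratio of 4.15 (95% exact interval 2.74 to 6.50, counting error only). The selenium-dependent peroxidase Gpx4, which guards membranes against lipid peroxides, was not called (-0.06, edgeR adjusted p = 0.27).

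In the thioredoxin and peroxiredoxin system 11 of 21 genes were higher in siKeap1 and 5 in siFem1b, with a median of -0.232. Txnrd1, thioredoxin reductase, had 1191, 1176 and 1208 CPM in siKeap1 and 328, 346 and 333 CPM in siFem1b, 3.55-fold lower. Prdx6 (4.30-fold), the sulfiredoxin gene Srxn1 (4.12-fold) and catalase, Cat (4.03-fold), were lower by similar factors. In contrast Txnip, which binds and inhibits thioredoxin, was 2.13-fold higher in siFem1b, at 26.6, 28.9 and 28.8 CPM against 15.3, 12.6 and 11.8 CPM, and the sestrin genes Sesn1, Sesn2 and Sesn3 were higher by log2 fold changes of 0.39, 0.16 and 0.45. Among 22 genes of NADPH production, 14 were higher in siKeap1 and 5 in siFem1b (median -0.253). Members of the pentose phosphate pathway led them, with Pgd at 550 ± 8.9 CPM in siKeap1 and 155 ± 1.5 CPM in siFem1b (SD, n = 3; 3.54-fold) and G6pdx, which commits glucose 6-phosphate to that pathway, at 453 ± 2.0 and 171 ± 3.4 CPM (2.65-fold). The malic enzyme gene Me1 followed at -1.31, then transketolase, Tkt, at -0.99 and the folate enzymes Mthfd1l and Mthfd1 at -0.96 and -0.82. Idh1, the cytosolic isocitrate dehydrogenase that also yields NADPH, lay on the siFem1b side (163 against 98.8 CPM, 0.73), as did Me3 (0.87) and Aldh1l1 (1.39).

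Iron and heme handling favoured siKeap1. Of 27 tested genes 18 were higher there, 1 was higher in siFem1b (Aco1, the iron-sensing cytosolic aconitase, at 0.25), and the median was -0.298. Ftl1 (chr7:45457944-45459884), the ferritin light chain, fell from 5293, 5233 and 5539 CPM in siKeap1 to 477, 399 and 450 CPM in siFem1b, while siCont held 3701, 4020 and 3583 CPM. The difference was 12.1-fold (log2 fold change -3.60, SE 0.0653, edgeR adjusted p = 1.9e-17), although copies of Ftl1 elsewhere in the genome make its single value uncertain. The ferritin heavy chain gene Fth1 was only 2.07-fold apart, at 1965 ± 29 and 951 ± 34 CPM. Slc48a1, a heme transporter of lysosomes, was 4.96-fold lower in siFem1b, the biliverdin reductase gene Blvrb was lower (-2.62) and the heme exporter gene Flvcr1 (-1.03). The transferrin receptor gene Tfrc, which brings iron into cells, was lower as well, at 133 against 196 CPM (-0.56).

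Among 24 genes that encode KEAP1, FEM1B, NRF factors and their partners, 9 were higher in siFem1b (37.5%) and 8 in siKeap1 (33.3%), close to the 32.1% and 31.8% of all tested genes. Nfe2l2 stood at 67.4, 65.4 and 67.7 CPM in siFem1b and at 102, 99.0 and 97.6 CPM in siKeap1, with a log2 difference of -0.57 (SE 0.0358, edgeR adjusted p = 6.5e-11), and both lay below siCont (136 ± 0.55 CPM). The 3′ UTR of its most abundant coding transcript matches the siFem1b seed. Nfe2l1, which encodes the related factor NRF1, was higher in siFem1b, at 456, 458 and 454 CPM against 241, 242 and 243 CPM (0.91). Sqstm1, the autophagy receptor p62 that binds KEAP1, was 2.04-fold lower in siFem1b, and the small Maf genes Maff, Mafk and Mafg, whose products pair with NRF2, were lower (-0.69, -0.60 and -0.41). Flcn, folliculin, was 1.56-fold higher in siFem1b (51.5 ± 1.9 against 33.0 ± 0.84 CPM). Fnip1, whose protein FEM1B targets, had 59.0, 69.7 and 62.0 CPM in siFem1b and 55.1, 59.2 and 53.5 CPM in siKeap1, which overlap. The Fnip1 log2 fold change of 0.18 had an adjusted p of 0.033 (edgeR), and the p rose to between 0.071 and 0.23 without siFem1b replicate 2, siFem1b replicate 3, siKeap1 replicate 1 or siKeap1 replicate 3. Ppargc1a, which encodes the mitochondrial coactivator PGC-1α, was low in both groups (1.62 and 0.996 CPM, log2 fold change 0.68, edgeR adjusted p = 0.029), and its call was lost without siFem1b replicate 2 (adjusted p = 0.14), siFem1b replicate 3 (0.064) or siKeap1 replicate 1 (0.14).

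**Figure D3:**
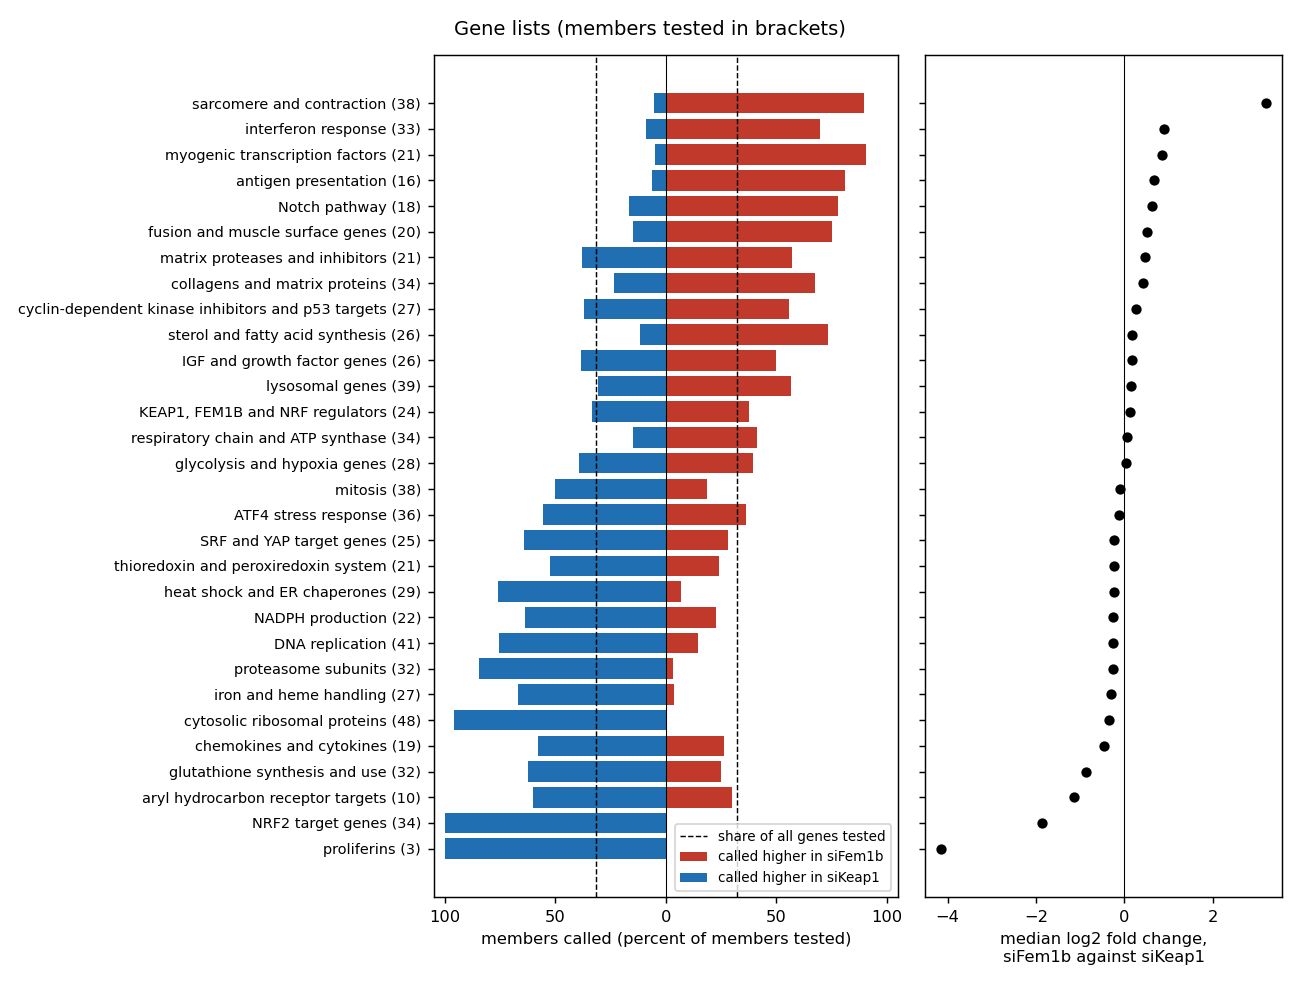
Left, the percent of the tested members of 30 gene lists called higher in siFem1b (red, to the right) or in siKeap1 (blue, to the left), with dashed lines at the shares of all tested genes, 32.1% and 31.8%. Right, the median log2 fold change of each list, from 3.21 for sarcomere genes to -4.14 for the 3 proliferin genes.

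Muscle genes stood opposite to the NRF2 targets. Of 21 tested myogenic transcription factors and cofactors, 19 were higher in siFem1b and 1 in siKeap1, with a median log2 fold change of 0.86. Myog (chr1:134289989-134292548), which encodes myogenin, had 57.3, 58.4 and 62.2 CPM in siFem1b and 0.0312, 0.0260 and 0.0528 CPM in siKeap1. That is 6792 counts against 4, a ratio of 1605 (95% exact interval 626 to 5891, counting error only), with 1.54, 1.85 and 1.32 CPM in siCont. Myog was thus close to absent with Keap1 depleted and plainly present with Fem1b depleted. Rbm24, an RNA-binding protein that steers muscle splicing, had 1291 counts in siFem1b and 0 in siKeap1, which makes it at least 407-fold higher (against a floor of 3 counts over the group).

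The factors that mark dividing myoblasts differed by smaller amounts in the same direction. Myod1 stood at 114, 108 and 119 CPM in siFem1b and at 64.4, 58.0 and 65.9 CPM in siKeap1 (1.82-fold, siCont 88.3 ± 2.1 CPM), and Myf5 at 79.4, 75.1 and 73.8 against 30.7, 28.3 and 31.7 CPM (2.52-fold). The MADS box factors Mef2a and Mef2c were 2.32-fold and 2.73-fold higher in siFem1b. Smyd1, a muscle methyltransferase needed to build myofibrils, was 10.3-fold higher, at 18.8 ± 1.9 against 1.84 ± 0.35 CPM. Id1, Id2 and Id3, inhibitors of MyoD-type factors, lay on the same side (0.43, 0.55 and 0.65), as did Pax7, the factor of muscle stem cells (16.5 against 8.48 CPM, 0.96). Msc, which encodes the repressor musculin, was the member higher in siKeap1, at 17.2 against 8.53 CPM (-1.01), and Mef2d was not called (95% interval -0.10 to 0.10).

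Sarcomere and contraction genes had the highest positive median of the gene lists, 3.21. Of 38 that passed the filter, 34 were higher in siFem1b (28 of them at least 2-fold, against 8.06% of all tested genes) and 2 in siKeap1. A gene near 0 in siKeap1 could pass the filter only through the other groups, so the count and the median are a description. The same holds for every other list with genes near 0 in either group. Ttn, titin, was well counted in both groups, at 213, 201 and 207 CPM in siFem1b and 39.1, 36.7 and 42.9 CPM in siKeap1 (5.23-fold). Acta1, skeletal alpha-actin, was 4.77-fold higher in siFem1b, at 64.5, 62.9 and 65.9 against 14.2, 13.3 and 13.2 CPM, and siKeap1 lay above siCont here (6.89 ± 0.85 CPM). Neb, the nebulin that sets thin filament length, had 33.1, 33.9 and 36.4 CPM against 1.09, 0.753 and 0.793 CPM (39.5-fold). Every siFem1b library lay above every siKeap1 library for each of these. The light chain genes Myl1 (109-fold) and Mylpf (24.5-fold), the embryonic myosin gene Myh3 (29.3-fold) and Klhl41 (37.7-fold) were among the largest well-measured differences. Tnnt1, the slow troponin T, had 1576 counts against 8 (ratio 186, 95% exact interval 94.2 to 432), Tnnc2 1923 against 17 and the cardiac actin gene Actc1 1860 against 19.

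A few structural genes went the other way or were not called. Tnnt2, the troponin T of heart and early muscle, was 2.17-fold lower in siFem1b, at 56.4, 41.6 and 47.6 against 102, 98.5 and 116 CPM. Xirp1, an actin-binding protein of attachment sites, was 1.82-fold lower (29.4 ± 0.67 against 53.5 ± 2.8 CPM). Ldb3, a Z-disc protein, had 24.7 and 25.7 CPM (edgeR adjusted p = 0.31), and Des, the intermediate filament of muscle that myoblasts already hold, was higher in siFem1b by 0.56.

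**Figure D4:**
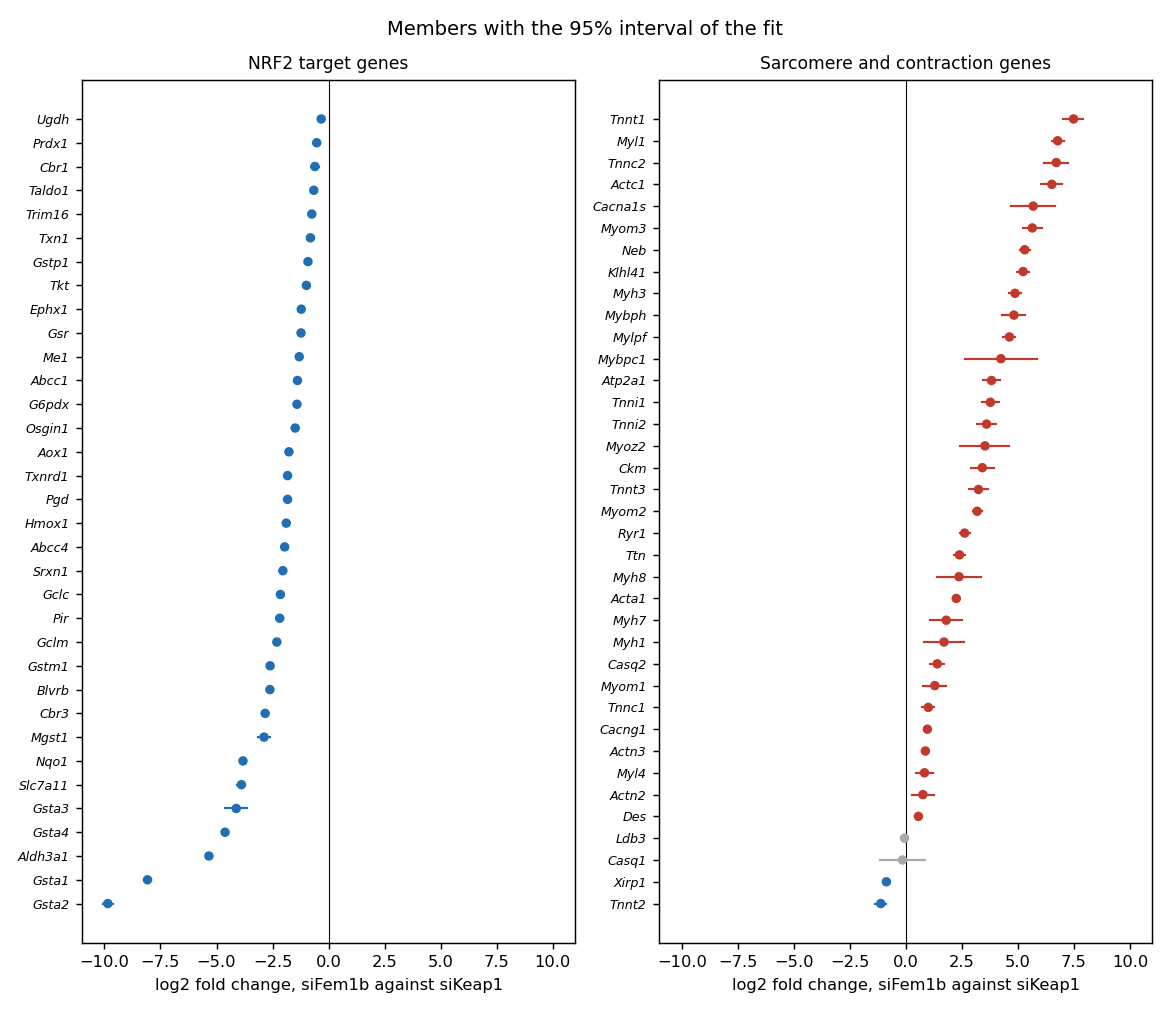
Log2 fold change of siFem1b against siKeap1 (x axis) with its 95% interval for the 34 tested NRF2 target genes (left) and for 37 of 38 sarcomere and contraction genes (right), leaving out Trdn, which had 0 counts in siKeap1. Every NRF2 target lies left of 0, and all sarcomere genes except Ldb3, Casq1, Xirp1 and Tnnt2 lie right of it.

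The E-box CAGCTG, a form that MyoD and myogenin are known to bind, was searched in the same promoters. It was present in 15 of 34 promoters of sarcomere genes (44.1%), in 15.8% of all promoters and in 2 of 35 promoters of the NRF2 list (5.71%). Promoters and not genes were counted. The 34 belong to 30 genes, and overlapping promoters of Tnni1 share the same E-box. Among promoters of genes called at least 2-fold higher in siFem1b the share was 24.9%, and among those of genes at least 2-fold higher in siKeap1 it was 15.8%. The antioxidant response element was in 5 of the 34 sarcomere promoters (14.7%). Those 4 matches outside exons that belong to the genes with the largest fold changes are printed as above, the E-box in capitals.
Cacna1s: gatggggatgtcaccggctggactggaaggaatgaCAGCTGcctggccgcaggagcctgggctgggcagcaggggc
Klhl41: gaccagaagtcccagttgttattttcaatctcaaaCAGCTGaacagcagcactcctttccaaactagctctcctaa
Mybph: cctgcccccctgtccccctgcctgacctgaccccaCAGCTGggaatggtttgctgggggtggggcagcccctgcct
Mylpf: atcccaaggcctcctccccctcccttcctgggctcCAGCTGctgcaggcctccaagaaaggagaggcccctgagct
The windows lie on the plus strand at chr1:136052653-136052728, chr2:69669958-69670033, chr1:134193334-134193409 and chr7:127211522-127211597. The motif reads the same on both strands, and Tnnt2, which was lower in siFem1b, holds 2 matches as well.

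Genes of fusion and of the muscle cell surface followed, with 15 of 20 higher in siFem1b, 3 higher in siKeap1 and a median of 0.523. Mymk, which encodes the fusion protein myomaker, had 17.6, 19 and 18.7 CPM in siFem1b and 1.15, 1.14 and 0.977 CPM in siKeap1 (16.9-fold). Its partner gene Mymx had 113 counts against 0 (at least 35.6-fold higher). The fetal acetylcholine receptor subunit gene Chrng was 31.6-fold higher in siFem1b, at 10.0 ± 0.34 against 0.318 ± 0.076 CPM, while the subunit genes Chrna1 and Chrnb1 differed by 0.12 and 0.01. The cadherin gene Cdh15 was higher by 0.85. Jam2, Jam3 and the neurotrophin receptor gene Ngfr were higher in siKeap1 (-0.48, -0.81 and -0.77).

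Growth factor genes were divided, with 1 extreme difference. Igf2 (chr7:142650766-142666816), the fetal insulin-like growth factor that myoblasts secrete as they differentiate, had 23.7, 21.9 and 24.9 CPM in siFem1b and 0.0312, 0 and 0.0264 CPM in siKeap1. The counts were 2695 and 2, a ratio of 1273 (95% exact interval 352 to 10520), and siCont held 0.315 ± 0.078 CPM. Igfbp5, an abundant binding protein for it, stood at 2842, 2694 and 2834 CPM against 134, 113 and 111 CPM (23.4-fold), on either side of siCont (1073, 1074 and 1117 CPM). Igf1 had 118 counts against 21 (ratio 5.31, interval 3.32 to 8.90), the receptor genes Igf2r and Igf1r were higher in siFem1b by 0.85 and 0.30, and Fgfr4 had 383 counts against 18. In contrast Igfbp2 (307 against 687 CPM, -1.16), Fgf7 (6.23 against 19.3 CPM, -1.63), the HGF receptor gene Met (-0.69) and Vegfa (-0.57) were higher in siKeap1. Over the list of 26 genes, 13 were higher in siFem1b and 10 in siKeap1, with a median of 0.163. C1qtnf3, a secreted relative of adiponectin outside the list, was 160-fold higher in siFem1b, at 70.3, 81.6 and 80.5 against 0.405, 0.442 and 0.581 CPM.

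Genes of the extracellular matrix differed in composition more than in summed level. Summed over 34 collagens and matrix proteins, the siFem1b libraries held 17553 to 18417 CPM and the siKeap1 libraries 17074 to 17585 CPM, yet 23 members were higher in siFem1b and 8 in siKeap1 (median 0.424). Among the fibrillar collagens of the list, Col3a1 stood at 2792, 2911 and 2900 against 1026, 987 and 952 CPM (2.90-fold), Col1a1 was 2.84-fold and Col1a2 2.07-fold higher, Col11a1 and Col5a2 were higher by 1.41 and 0.22, and Col5a1 was not called (0.03). Small leucine-rich proteoglycans ranged more widely. Decorin, Dcn, which coats collagen fibrils, had 15.6, 19.4 and 16.3 CPM against 0.468, 0.208 and 0.159 CPM (ratio of counts 63.6, interval 44.1 to 95.2), Islr, a secreted leucine-rich protein, was 26.3-fold higher, and Ogn, Fmod, Prelp and Aspn lay on the same side (2.46 to 4.12), while Bgn, biglycan, was higher by 0.13. The collagen VI genes Col6a1 and Col6a2 were higher by 1.71 and 2.46, and Col6a3 by 0.27.

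The 8 matrix members higher in siKeap1 were Nid1, Col4a1, Col4a2, Lamc1, Lamb1, Tnc, Thbs1 and Lox (-0.11). Nid1, a nidogen that links laminin to collagen IV in basement membranes, had 2984, 2929 and 2898 CPM in siKeap1 and 714, 713 and 713 CPM in siFem1b, 4.12-fold lower, with siCont between (1833 ± 69 CPM). Collagen IV chains Col4a1 and Col4a2, which are transcribed from a shared promoter region, were lower in siFem1b (-0.89 and -1.15), and so were the laminin chains Lamc1 and Lamb1 (-0.73 and -0.40). Tnc, tenascin C, was 2.91-fold lower (285 ± 14 against 829 ± 45 CPM) and the thrombospondin gene Thbs1 lower (-0.76). Other basement membrane genes, outside the list and chosen after their values were seen, lay on the siFem1b side, with Nid2 at 121 and 24.6 CPM and the laminin chain Lama2 at 111 and 27.8 CPM, and Col18a1 was not called (0.01). Fn1, fibronectin, differed by just 0.18. Among 21 matrix proteases and their inhibitors, 12 were higher in siFem1b and 8 in siKeap1. The membrane-bound metalloproteinase gene Mmp15 had 58.8, 59.7 and 61.4 CPM in siFem1b and 2.40, 2.10 and 2.32 CPM in siKeap1 (26.4-fold), and the aggrecanase gene Adamts5 was 9.47-fold higher. On the siKeap1 side stood Mmp10, a secreted stromelysin (30.9, 33.9 and 28.7 against 2.73, 2.40 and 2.76 CPM, 11.8-fold) and the protease inhibitor gene Slpi (log2 fold change -3.20).

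**Figure D5:**
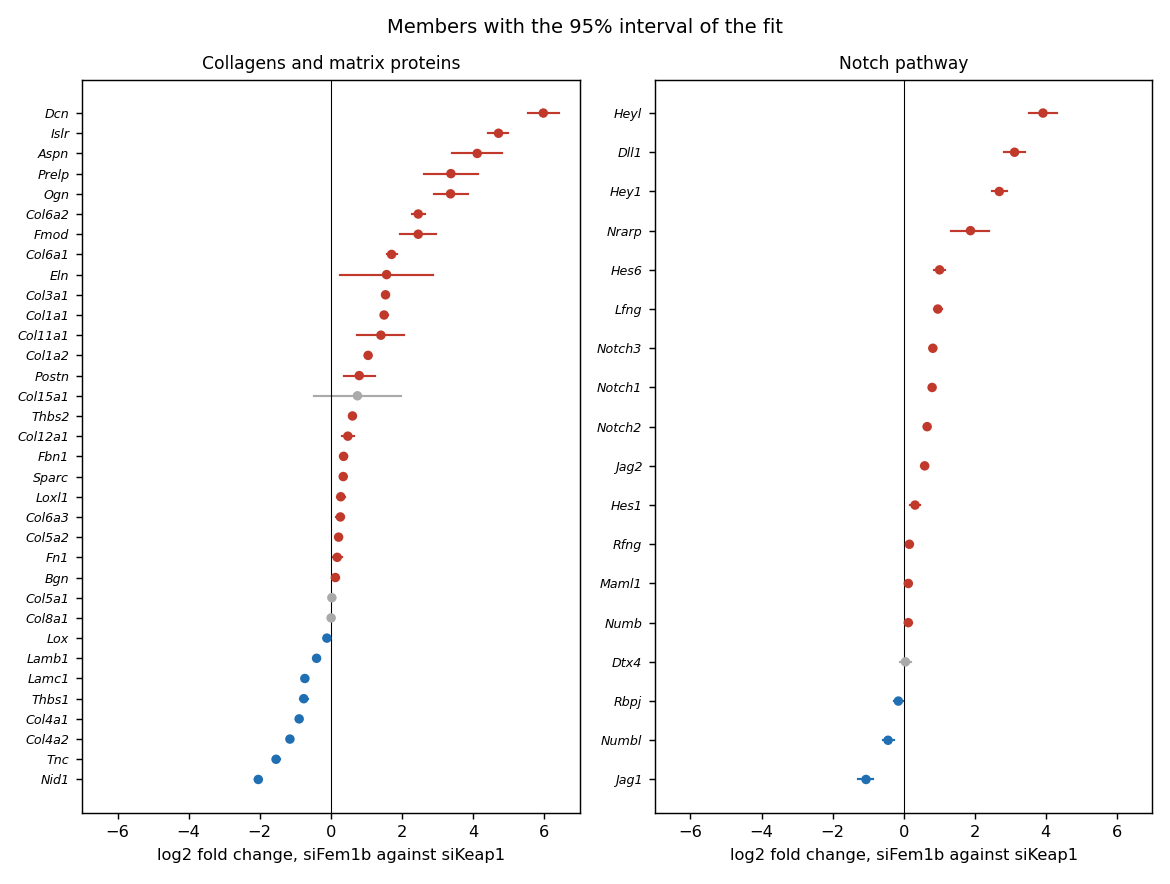
Log2 fold change of siFem1b against siKeap1 (x axis) with its 95% interval for 34 collagens and matrix proteins (left) and 18 Notch pathway genes (right), coloured where called. Matrix members spread from Nid1 at -2.04 to Dcn at 5.98, and Notch members from Jag1 at -1.06 to Heyl at 3.92.

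Notch signalling, in which ligands on one cell activate receptors on the next, is known to keep muscle precursors from differentiating, and most of its genes were higher in siFem1b. Of 18 tested genes, 14 were higher in siFem1b and 3 in siKeap1 (median 0.627). Among ligands, Dll1 had 7.6, 7.92 and 7.46 CPM in siFem1b and 0.936, 1.04 and 0.660 CPM in siKeap1 (8.71-fold), Jag2 was higher by 0.59, and Jag1 was lower (-1.06, 5.51 against 11.5 CPM). The receptor genes Notch1, Notch2 and Notch3 were higher by 0.80, 0.66 and 0.82. The target genes Hey1 (19.2, 17.8 and 20.4 against 3.28, 2.52 and 3.14 CPM, 6.45-fold), Heyl (15.2-fold) and Nrarp (1.88) were higher by more, while Hes1 differed by 0.32. Rbpj, the factor to which the cleaved receptor binds, was lower in siFem1b (-0.15, edgeR adjusted p = 0.041), and its call was lost without siFem1b replicate 1, siFem1b replicate 3, siKeap1 replicate 1 or siKeap1 replicate 2 (adjusted p from 0.05 to 0.25).

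Interferon-response genes were higher in siFem1b in 23 of 33 cases and in siKeap1 in 3, with a median of 0.908. Their levels were low throughout, 330 to 345 CPM in sum in siFem1b and 222 to 232 CPM in siKeap1. Members near 0 in siKeap1, such as Cmpk2 (49 counts in siFem1b against 5), could pass the filter only through other groups. The count and the median are therefore a description. Irf7, the factor that amplifies the response, had 2.09, 1.95 and 2.23 CPM in siFem1b and 0.593, 0.390 and 0.343 CPM in siKeap1 (4.78-fold), and Ifi27 stood at 40.4 ± 1.9 and 14.7 ± 1.4 CPM. Parp9 and Dtx3l, which act as a pair, were higher by 1.58 and 1.32, and Ddx58, the RNA sensor RIG-I, by 1.00. Trim25, which activates that sensor, was lower in siFem1b (38.4 against 51.9 CPM, -0.43). The call of Ifit1 (-0.92) was lost without siKeap1 replicate 2 (adjusted p = 0.12), and that of Oasl1 (-0.55) without siFem1b replicate 2, siFem1b replicate 3, siKeap1 replicate 1 or siKeap1 replicate 2 (0.084 to 0.19). The Oasl1 call was also lost with DESeq2 (0.086), with limma-voom (0.073) and with an offset for transcript length, where its log2 fold change was -0.16 (adjusted p = 0.7). Antigen presentation genes went with them, 13 of 16 higher in siFem1b and 1 higher in siKeap1 (median 0.66). The exception, H2-Q7 (-0.37), lost its call without any 1 of the libraries other than siFem1b replicate 2 (adjusted p 0.058 to 0.13). Tapbp, tapasin, stood at 173 ± 2.75 CPM in siFem1b, 1.71-fold above siKeap1, and the class I genes H2-K1, H2-D1 and H2-T23 and B2m were higher by 0.64 to 0.84, with shared reads between class I copies possible.

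Chemokines and cytokines leaned to siKeap1, with 11 of 19 higher there, 5 higher in siFem1b and a median of -0.458. Gdf15, a secreted stress cytokine, had 116, 111 and 118 CPM in siKeap1 and 24.6, 22 and 24.5 CPM in siFem1b (4.85-fold). Il1f9, an interleukin 1 relative, stood at 12.7 and 1.26 CPM (-3.34), Ccl7 at 18.7 and 5.0 CPM (-1.90), and Csf1, the macrophage growth factor, at 496 and 233 CPM (-1.09). Cxcl12 (42.1 against 15.7 CPM, 1.42), the receptor antagonist Il1rn (8.85 against 1.74 CPM, 2.35) and Tslp (2.24) were higher in siFem1b.

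Genes of cell division differed by small amounts. Of 41 DNA replication genes, 31 were higher in siKeap1 and 6 in siFem1b, with a median of -0.259, and of 38 mitosis genes 19 and 7, with a median of -0.108. Mcm2, a subunit of the replicative helicase, had 278, 274 and 264 CPM in siKeap1 and 168, 171 and 179 CPM in siFem1b (1.58-fold), and Kif20a, a kinesin of cytokinesis, stood at 222 ± 6.2 and 107 ± 3.6 CPM (2.06-fold). Plk1 (-0.51) and Cdk1 (-0.36) were lower in siFem1b, whereas Top2a (0.15), Cenpf (0.22) and the phosphatase gene Cdc25b (190 against 116 CPM, 0.72) were higher. Ung, the uracil glycosylase, was 2.70-fold higher in siFem1b at 14.1, 12.9 and 13.6 against 5.33, 4.86 and 4.89 CPM, but siCont held 22.6 ± 1.7 CPM, and Ung holds a match to the siKeap1 seed in its 3′ UTR. Summed CPM of the mitosis list were 5062 to 5228 in siFem1b, 5402 to 5493 in siKeap1 and 6918 to 7075 in siCont.

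Inhibitors of the cycle and p53 targets formed a mixed list, 15 of 27 higher in siFem1b and 10 in siKeap1. All 5 tested cyclin-dependent kinase inhibitor genes of the list were higher in siFem1b, a subset read after the values were seen, with Cdkn2d and Cdkn2c higher by 0.81 and 0.67, Cdkn1b, p27, at 75.3 against 38.7 CPM (0.96), Cdkn1c at 1.92 against 0.332 CPM (2.52) and Cdkn1a, p21, at 271 ± 2.9 against 208 ± 4.5 CPM (0.39, siCont 131 ± 4.0 CPM). The antiproliferative gene Btg2 was 3.10-fold and the cyclin gene Ccnd3 higher by 0.81 in siFem1b. The p53 targets stood on both sides. Plk2 (-1.11), Ccng1 (-0.91), Aen (-0.77), Bax (-0.63) and Mdm2 (-0.57) were higher in siKeap1, and Bbc3 (12.4 against 7.5 CPM, 0.72) was higher in siFem1b. These are examples, and not all of the 15 members higher in siFem1b are named.

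Targets of SRF and YAP, which respond to actin and to adhesion, were higher in siKeap1 in 16 of 25 cases and in siFem1b in 7 (median -0.23). Ccn2, a matricellular growth factor, had 210, 198 and 244 CPM in siKeap1 and 27.8, 26.3 and 25 CPM in siFem1b (8.24-fold), with 97.1 ± 2.9 CPM in siCont. Nt5e (-1.76), Fosl1 (-1.44), Tgfb2 (-1.21), Axl (-0.97) and Ccn1 (-0.90) followed, and the immediate early genes Egr1 (1.16) and Fos (1.47) were on the siFem1b side. ATF4 drives the integrated stress response, and of 36 genes listed under it 20 were higher in siKeap1 and 13 in siFem1b (median -0.118), Atf4 itself was not called (304 and 305 CPM, 95% interval -0.10 to 0.10), and the glycine transporter gene Slc6a9 was furthest to the siKeap1 side (77.4 ± 2.6 against 28.8 ± 0.13 CPM, -1.42). Shmt2 (-0.86) and Phgdh (-0.54), enzymes of serine and glycine metabolism, were higher in siKeap1, and Vldlr (2.42), Gpt2 (1.03) and Nupr1 (0.78) in siFem1b.

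Lysosomal genes were higher in siFem1b in 22 of 39 cases (56.4%) and in siKeap1 in 12 (30.8%), with a median of 0.159. The siKeap1 share lay near the 31.8% of all tested genes, and 32.1% of those were higher in siFem1b. Gpnmb, a glycoprotein of lysosomes and melanosomes, had 13.5, 13.9 and 13.6 CPM in siFem1b and 1.56, 1.90 and 1.59 CPM in siKeap1 (8.08-fold), and the sialidase gene Neu1 was 2.48-fold higher. The proteases Ctsd (-0.47), Ctsb (-0.38) and Lgmn (-1.13) were higher in siKeap1. Sterol and fatty acid synthesis had 19 of 26 genes higher in siFem1b and 3 in siKeap1 (median 0.169), led by Hmgcs1, which makes the precursor of mevalonate (457 ± 21 against 233 ± 7.1 CPM, 1.96-fold), and Srebf2 (0.63), the factor that drives the pathway. The acetate-activating enzyme gene Acss2 was 3.04-fold lower (14 ± 0.84 against 42.5 ± 1.7 CPM).

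Genes of energy metabolism had medians near 0. Glycolysis and hypoxia genes numbered 11 higher in siFem1b and 11 in siKeap1 of 28 (median 0.0358). That is 39.3% each, against 32.1% and 31.8% of all tested genes. Pfkfb3 (-1.43) and Hk2 (84.2 against 159 CPM, -0.92) were higher in siKeap1 and the lactate exporter gene Slc16a3 (0.84) in siFem1b. The glucose transporter gene Slc2a1 was higher in siFem1b than in siKeap1 (131 against 94.7 CPM, 0.47), both far below siCont (266 CPM), and it holds seed matches to both siRNAs. Respiratory chain and ATP synthase genes numbered 14 higher in siFem1b and 5 in siKeap1 of 34 (median 0.0629), or 9 higher in siFem1b without siFem1b replicate 3. The largest differences were those of the muscle isoform Cox7a1 (1.67 against 0.552 CPM, 1.63) and of Sdhd (50.6 against 85.9 CPM, -0.77), which holds a siFem1b seed match.

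Genes of protein synthesis and quality control were mostly lower in siFem1b. Of 48 cytosolic ribosomal protein genes, 46 were higher in siKeap1 and 0 in siFem1b, with a median of -0.356 and a range from -0.889 to -0.129. Rplp0 had 1530, 1599 and 1677 CPM in siFem1b and 2076, 2108 and 2018 CPM in siKeap1 (1.29-fold), and siCont lay near siKeap1 (2164 ± 118 CPM). Many ribosomal protein genes have processed copies, so single values are uncertain. Of 32 proteasome genes 27 were higher in siKeap1 and 1, Psmc3, in siFem1b (median -0.264). Psma5 stood at 209, 203 and 204 against 95.9, 99.2 and 96.5 CPM (2.11-fold), and Psmd11 was lower (-0.91) and holds a siFem1b seed match. Of 29 chaperones 22 were higher in siKeap1 and 2, Xbp1 and Herpud1, in siFem1b (median -0.237), led by Hsph1 (330, 329 and 340 against 163, 164 and 166 CPM, 2.03-fold) and the mitochondrial chaperonin gene Hspd1 (-0.89). Scaling by library totals alone in place of TMM moves all log2 fold changes up by 0.071 in the median, and the counts of these lists stayed within 1.5 times.

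Further large differences lay outside the redox and muscle lists. Proliferins, placental hormones of the prolactin family that growing mouse cell lines secrete, were higher in siKeap1 for the 3 of 5 listed genes that were tested. Prl2c2 had 1224, 1245 and 1156 CPM in siKeap1 and 23.9, 26.2 and 22.3 CPM in siFem1b (log2 fold change -5.64, siCont 205 ± 6.7 CPM), Prl2c3 was 16.0-fold and Prl2c5 17.7-fold apart, with near-identical copies whose single values are uncertain. Of 10 aryl hydrocarbon receptor genes 6 were higher in siKeap1 and 3 in siFem1b (median -1.15), among them the cytochrome gene Cyp1a1 (17.8 against 6.82 CPM) and Ugt1a6a (21.6 against 1.58 CPM), although Nqo1 and Aldh3a1 are shared with the response to NRF2. Trdc, which encodes the constant region of the T cell receptor delta chain, stood at 24.0, 25.2 and 22 CPM in siKeap1 and at 0.221, 0.474 and 0.447 CPM in siFem1b. The steroidogenic enzyme gene Cyp11a1 (22.2-fold), Fibcd1 (21-fold), Serpinb9e (18.3-fold) and Calr3 (17.4-fold) were higher in siKeap1 too. Hfe2, hemojuvelin, a coreceptor made in muscle and liver, had 1208 counts in siFem1b and 6 in siKeap1 (ratio 190, interval 87.2 to 519).

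Among genes with a mean of at least 500 CPM, further rises to siFem1b were those of Npnt, nephronectin (856 ± 19 against 321 ± 8.7 CPM), Ptms (2.10-fold), S100a6 (1.84-fold), the hyaluronan receptor gene Cd44 (1.64-fold) and Timp2 (1.63-fold). Esd, esterase D, had 912, 922 and 840 CPM in siKeap1 and 181, 197 and 194 CPM in siFem1b (4.68-fold), and Spp1, osteopontin, was 2.43-fold apart. For some abundant genes the interval bounded how large a difference could be. They were picked because their intervals lay narrowest about 0 among genes with a mean of at least 200 CPM. The 95% intervals of the log2 fold change of Fam129b, Copb2, Ubap2, Ywhah, Tagln2 and Myof reached no further than 0.08 from 0. Fam129b, for example, had 636, 618 and 643 CPM in siFem1b and 640, 639 and 620 CPM in siKeap1, which overlap.

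Markers of other cell types were read in the same fit. Of 18 epithelial markers 13 passed the filter, 5 higher in siFem1b (38.5%) and 4 in siKeap1 (30.8%). These shares lay near the 32.1% and 31.8% of all tested genes. Krt14 had 62.1, 60.2 and 65.0 CPM in siKeap1 and 13.4, 11.6 and 13.7 CPM in siFem1b, Krt17 had 170 counts against 5, and Krt16, outside the list, was 45.4-fold higher in siKeap1. Krt19 (71.1 against 40.6 CPM), Pkp1 (167 against 74.0 CPM) and Cdh1 (206 counts against 23) were higher in siFem1b, and the defining gene Epcam had 1 and 0 counts. The summed list lay at 254 to 271 CPM in siFem1b, 184 to 192 CPM in siKeap1 and 141 to 145 CPM in siCont.

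Of 14 macrophage and leukocyte markers 3 passed, Cd14, Cd68 and Csf1r, each higher in siKeap1 (sum 17.1 to 18.8 CPM against 11.1 to 12.2 CPM), and Adgre1 and Tyrobp had 0 counts in both groups. Endothelial markers summed to 2.57 to 2.80 CPM in siFem1b and 2.81 to 3.17 CPM in siKeap1, with Cldn5 at 0 counts. Only Kdr of 6 was called, higher in siKeap1 (32 counts against 10), and the call was lost without siKeap1 replicate 2 (edgeR adjusted p = 0.065). Adipocyte markers had 4 of 7 higher in siFem1b (57.1%) and 2 in siKeap1 (28.6%), against 32.1% and 31.8% of all tested genes. They summed to 121 to 127 CPM in siFem1b and 77.2 to 81.0 CPM in siKeap1. Of those higher in siKeap1, Pparg stood at 32.5 CPM in siFem1b and 39.3 CPM in siKeap1 (log2 fold change -0.27). Fabp4, also higher in siKeap1 (32 counts against 7), lost its call without siFem1b replicate 2, siFem1b replicate 3 or siKeap1 replicate 3 (edgeR adjusted p 0.06 to 0.15). Car3 stood at 29.7 and 6.08 CPM and Adipoq at 0 counts. Neuron and Schwann cell markers had 4 of 7 higher in siFem1b (57.1%) and 2 in siKeap1 (28.6%), at 980 to 1020 against 812 to 820 CPM in sum. Log2 fold changes of the 7 ran from -1.41 to 4.19. On the siFem1b side, Stmn2 stood at 208 and 84.4 CPM and Map2 at 54.3 and 18.4 CPM, and Sox10 had 1 and 0 counts. The part of these markers in the results above was not tested.

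Each group held its own siRNA, so seed matches were counted in the 3′ UTR of 1 transcript per gene for 13099 genes. A match to the siKeap1 seed, GACACGG, was found in 327 genes, of which 54.1% were called higher in siFem1b and 20.5% higher in siKeap1, with a median log2 fold change of 0.251. Without a match the shares were 33.3% and 33.2%, and the median was 0.00125. A match to the siFem1b seed, CAGAATT, was found in 1657 genes, of which 26.5% were called higher in siFem1b and 43.2% higher in siKeap1, with a median of -0.108, against 34.8%, 31.4% and 0.0187 without one. These shares are given as a description, with no test. Some named genes were not among those searched, such as Gclm, Neb, Irf7, Il1rn, Slc16a3, Map2, Trdc and Myh1. Of the genes named above, Nfe2l2, Igf2, Cat, Srxn1, Prdx1, Sesn3, Me1, Sqstm1, Mef2c, Ldb3, Jam2, Aspn, Col11a1, Lox, Lamc1, Vldlr, Ifit1, Notch1, Igf2r, Fibcd1, Ccl7, Kif20a, Shmt2, Adamts5, Slc2a1, Sdhd, Psmd11 and Spp1 hold a siFem1b match, and Srxn1, Ung, Slc2a1, Hsph1 and Vegfa a siKeap1 match. Of the genes listed with a siFem1b match, Igf2, Adamts5, Igf2r, Notch1, Mef2c, Aspn, Col11a1, Sesn3, Vldlr and Slc2a1 were higher in siFem1b. Ldb3 was not called, and the rest of those with a siFem1b match were higher in siKeap1. Of the genes with a siKeap1 match, Srxn1, Hsph1 and Vegfa were higher in siKeap1, and Ung and Slc2a1 were higher in siFem1b. The part of seed matches in any of the differences was not tested.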

How the data were processed

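Poly(A)-selected RNA of 12 C2C12 libraries (4 siRNA groups of 3) was sequenced in 2 runs each. Per the submitters' processing notes, the authors used kallisto 0.44.0 and the mm10 build, and the deposited tables give estimated counts and TPM per transcript. Transcripts were matched to GENCODE M21 (98.5% of 118489; unmatched transcripts held 0.606 to 0.640% of counts), summed per gene and over both runs, and rounded. Kallisto shares reads among similar transcripts, so values of near-identical copies are uncertain. TPM served only for levels between genes.

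The 6 libraries compared held 32855831 to 39917434 counts. Genes passing edgeR's filterByExpr (14577) were fitted in R 4.3.3 with edgeR 4.0.16 (TMM, robust quasi-likelihood) on all 12 libraries by group, siFem1b minus siKeap1, with Benjamini-Hochberg adjustment over all genes and a threshold of 0.05. The fit was tested on simulated data. CPM are counts per scaled library size. The SE is the absolute log2 fold change over the square root of the F statistic. Where a group held 30 counts or fewer, the counts are given for most named genes, for part of them with a ratio and its exact Clopper-Pearson 95% interval. Some, such as Aspn and Prelp (12 and 16 counts in siKeap1), are given by the fitted log2 fold change alone. For a ratio, a group at 0 counts was set to a floor of 3. Intervals on counts cover counting error only.

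The genes named were 16 preset genes, the 14 largest rises and 14 largest falls at a mean of at least 5 CPM, up to 6 members of each list by p with up to 4 against its direction, up to 8 per direction at 500 CPM or more, and those with the narrowest intervals. Further list members were named after their values were seen. A few genes that the rule selects are not reported here. The members and gene lists were chosen with earlier results of these data known. Replicate numbers did not pair the libraries. The alternatives were other normalizations and filters, DESeq2 1.42.0, limma-voom 3.58.1, single runs, the 2 groups alone, a replicate block, a transcript length offset, a stricter threshold and each library left out.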

Additional observations from a re-analysis of the deposited data

How the results depend on the processing

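The naming rule selected 287 genes, which are the named genes meant here. List members named beyond the rule were not followed gene by gene across the alternatives. Of the 287, 273 kept their direction and their side of the threshold under all of the 18 alternatives that tested them. The call of 14 changed side in at least 1, and 0 reversed. The calls of Oasl1 and H2-Q7 were lost under 12 alternatives each, that of Rbpj under 11, Fnip1 under 7 and Ppargc1a under 6, where the log2 fold change reached -0.16 for Oasl1 and 0.45 for Ppargc1a with an offset for transcript length, -0.18 for H2-Q7 in the first run alone and -0.08 for Rbpj with library totals alone. Leaving out 1 library at a time gave 4214 to 4484 genes higher in siFem1b and 4359 to 4771 higher in siKeap1. Scaling by library totals alone gave 5395 and 3815, so that 58.6% of called genes were higher in siFem1b in place of 50.2%. Same-numbered libraries of the 2 groups had deviations correlated at -0.0576, 0.117 and -0.0493, not every library correlated best with its own number, and a fit with the replicate number as a block called 4606 and 4578 genes, losing Rbpj (adjusted p = 0.061, edgeR) and H2-Q7 (0.057, edgeR) among the named genes. Members called higher in siFem1b numbered 14 with library totals alone and 5 in the first run alone for the KEAP1, FEM1B and NRF regulators, and 7 in the first run alone for glycolysis and hypoxia genes. At 5 CPM or more in 3 libraries they numbered 21 for sarcomere genes, 15 for the interferon response and 3 for epithelial markers, where fewer genes were tested. Respiratory chain genes numbered 9 at an adjusted p under 0.01, and 9 to 14 with 1 library left out. Endothelial markers higher in siKeap1 numbered 0 at 5 CPM or more, with the 2 groups alone and in the first and the second run alone, 2 with an offset for transcript length, and 0 to 1 with 1 library left out. The cause was not tested where fewer genes or samples do not account for it. Genes with few counts in a group are limited by depth.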
